A study of Mus musculus with 8 samples.

Results

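The m6A readers and erasers described here were 10 genes, chosen by symbol: the readers Ythdf1, Ythdf2, Ythdf3, Ythdc1, Ythdc2, Hnrnpc, Hnrnpa2b1 and Prrc2a, and the erasers Fto and Alkbh5. All 10 were among the 16133 genes of the deposited comparison, and each was also looked up in the m6A peak list of each genotype. They were measured in mouse liver in METTL14Alb mice, called METTL14 LKO in the study's design text (here KO), and in METTL14f/f mice, which carry the floxed gene without the deletion (here WT). Every mouse of both genotypes had received tunicamycin intraperitoneally at 2 mg/kg for 24 hours, an inhibitor of N-linked glycosylation that causes stress of the endoplasmic reticulum, so no level without tunicamycin was measured. Polyadenylated liver RNA was sequenced before (input) and after precipitation with an antibody against m6A (IP), with 2 libraries in each of 4 groups: KO input, KO IP, WT input and WT IP. No age is stated, and nothing ties the 2 libraries of a group to different animals. Every p-value of a KO against WT difference below therefore reflects the spread between libraries, which may be technical. The authors' p-values of peaks come from pooled lists with no value per library, so they cannot show that spread. The labels do not state the cells in which the deletion was made.

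N6-methyladenosine (m6A) is a methyl mark on adenosines of mRNA, written in the nucleus by a complex around METTL3 and METTL14. Readers are proteins that bind marked RNA: the cytoplasmic YTHDF proteins act on decay and translation, nuclear YTHDC1 on splicing and export, and YTHDC2 is an RNA helicase best known from germ cells. HNRNPC and HNRNPA2B1 are nuclear RNA-binding proteins whose binding has been tied to m6A, PRRC2A is a proposed reader first described in brain, and FTO and ALKBH5 are the demethylases that remove the mark.

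The promoters of the 4 members that passed the test of a KO against WT difference are shown first, because these are the sequences in front of annotated starts of the genes whose mRNA changed. Each line gives the 250 bases before the annotated start, 5′ to 3′ on the gene's strand, from RefSeq (GRCm38.p6), with every CCAAT and every GGGCGG, on either strand, in capitals. The windows were chr4:132212257-132212506 for Ythdf2, chr2:180920937-180921186 for Ythdf1, chr17:35164878-35165127 for Prrc2a and chr14:52104022-52104271 for Hnrnpc, all on the minus strand. The start is that of the transcript in the RefSeq promoter table; for Prrc2a and Hnrnpc it lies inside the gene bounds given below, so their windows fall wholly or partly within the gene.
Ythdf2: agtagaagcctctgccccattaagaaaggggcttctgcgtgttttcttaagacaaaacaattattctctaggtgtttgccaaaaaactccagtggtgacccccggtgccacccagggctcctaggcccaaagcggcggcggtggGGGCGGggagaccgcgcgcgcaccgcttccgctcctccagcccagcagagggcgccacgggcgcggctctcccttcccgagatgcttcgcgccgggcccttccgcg
Ythdf1: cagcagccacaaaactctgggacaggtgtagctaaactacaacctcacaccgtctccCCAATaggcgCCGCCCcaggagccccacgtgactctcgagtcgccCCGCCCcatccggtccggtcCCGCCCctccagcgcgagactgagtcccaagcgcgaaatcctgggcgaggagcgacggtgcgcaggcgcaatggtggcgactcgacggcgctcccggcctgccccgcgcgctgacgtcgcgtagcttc
Prrc2a: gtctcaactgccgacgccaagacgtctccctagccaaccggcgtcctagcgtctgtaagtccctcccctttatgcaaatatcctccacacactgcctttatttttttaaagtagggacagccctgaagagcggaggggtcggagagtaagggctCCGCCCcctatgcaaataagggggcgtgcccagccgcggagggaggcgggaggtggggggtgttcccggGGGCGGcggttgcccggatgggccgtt
Hnrnpc: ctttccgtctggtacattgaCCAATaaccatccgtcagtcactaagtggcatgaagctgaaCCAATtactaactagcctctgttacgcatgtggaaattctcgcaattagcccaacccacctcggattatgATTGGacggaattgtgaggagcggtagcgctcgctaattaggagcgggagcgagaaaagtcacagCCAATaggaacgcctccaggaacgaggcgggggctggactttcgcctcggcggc
The Hnrnpc window held 4 CCAAT matches and 0 GGGCGG matches. The 3 windows of genes that were higher in KO held GGGCGG, with 1 match in Ythdf2, 3 in Ythdf1 and 2 in Prrc2a, and of these Ythdf1 alone also held CCAAT, with 1 match. Members that were not called held these letters too. Ythdc1 had 4 GGGCGG and 0 CCAAT matches, and Alkbh5 had 2 GGGCGG and 1 CCAAT. Hnrnpa2b1 had 1 CCAAT and 0 GGGCGG in each of its windows, and Fto had 0 of both. Among 32817 promoter windows of the same length, 33.8% held CCAAT and 32.7% held GGGCGG on either strand. Sequences that factors of the endoplasmic reticulum stress response bind were also searched on both strands: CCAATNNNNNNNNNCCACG (ERSE, which contains the CCAAT letters), TGACGTG (the core of the UPRE) and TGATGNAA (an ATF4 site core). They were held by 0.113%, 1.65% and 3.45% of all windows, in that order. None of the 3 was found in the windows of the 4 called members, and among the 8 members with a window TGATGNAA alone was found, in Hnrnpa2b1. A match or its absence describes the letters of this window only.

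Depth, scale and composition bear on every value below. Counts of the 4 input libraries were recovered from the deposited means for most genes. The libraries held an estimated 12664123 (KO A) and 12316851 (KO B) reads against 16814052 (WT A) and 13504024 (WT B). Reads recovered gene by gene were 8108911 and 8044854 in KO against 8344319 and 6722830 in WT, in the same order. The remainder of each total is an estimate, and scaling by total reads used the whole totals. Normalized counts below are reads divided by the authors' size factors; dividing by total reads instead adds 0.82 to the log2 change of the median gene, and members whose direction turns under that scaling are named. The deposited fold change was read as KO over WT: of 347 genes with a log2 change above 2 and a mean of at least 100, 156 had KO peaks without WT peaks and 0 had WT peaks without KO peaks, and of 403 genes below -2 these were 30 and 46. Which recovered libraries are called KO and WT rests on this reading. Mettl14 itself had 64.6 and 62.0 normalized counts in KO libraries against 79.8 and 99.7 in WT libraries, a log2 change of -0.50 ± 0.41 (SE) that did not pass in the authors' deposited table (DESeq2, adjusted p = 0.342) and that was 0.32 after scaling by total reads. The counts cannot be split by exon, so the total count need not show the deleted part. Markers of other cells differed between genotypes in the authors' deposited table: 7 of 8 cholangiocyte, 5 of 8 stellate or fibroblast and 5 of 8 cycling-cell markers were higher in KO, and 7 of 9 hepatocyte markers were lower while 1 was higher. Summed normalized counts of the cholangiocyte markers were 6136 and 5548 in KO libraries against 943 and 1120 in WT libraries, with Krt7 and Cldn4 at 0 in at least 1 library. The summed stellate or fibroblast markers were 9797 and 7018 in KO against 3926 and 3085 in WT, and the summed cycling-cell markers 1305 and 888 in KO against 409 and 385 in WT, with Top2a, Ccnb1 and Ccna2 at 0 in at least 1 library. Of the hepatocyte markers, Alb had a mean of 349244 normalized counts over all 4 libraries, and Tf was not in the table. Lymphocyte markers gave 0 calls among 6, macrophage markers 2 higher and 2 lower among 8, and endothelial markers 0 higher and 1 lower among 8. The part of this shift in the members' values was not tested; in bulk RNA, fewer cells of a type and less RNA per cell cannot be told apart.

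Among the readers of the YTHDF family, Ythdf2 and Ythdf1 mRNA rose in KO livers and Ythdf3 did not pass the test with the authors' size factors. Ythdf2, the member best known for bringing marked mRNA to deadenylation and decay (chr4:132184916-132212256), had 1005 and 1105 normalized counts in KO A and KO B against 360 and 384 in WT A and WT B. The libraries of the genotypes stood far apart, with the lower KO value 162% above the higher WT value. In the authors' deposited table Ythdf2 was 2.84-fold higher in KO, a log2 change of 1.50 ± 0.21 (SE; DESeq2, adjusted p = 1.68e-11), and it was the one member changed by at least 2-fold. limma on log2(normalized count + 1) gave 1.50 (adjusted p = 7.39e-04); leaving out KO A or KO B kept the log2 change at 1.57 or 1.43 with limma adjusted p = 0.0659 or 0.0652. Ythdf1, a reader tied mainly to translation (chr2:180904377-180920936), had 893 and 942 normalized counts in KO libraries against 516 and 691 in WT libraries. These groups did not overlap, but the WT libraries themselves differed by 33.8%, the widest spread within a genotype among the 10 members. Its 1.52-fold difference in the authors' deposited table, a log2 change of 0.61 ± 0.22 (SE), passed (DESeq2, adjusted p = 0.0184), as it did in limma (adjusted p = 0.0298). Without KO A, KO B or WT A, Ythdf1 no longer passed in limma, with log2 changes of 0.66, 0.58 and 0.41 and adjusted p of 0.283, 0.303 and 0.0790. Ythdf3, the third cytoplasmic paralog (chr3:16183148-16217037), had 968 and 1047 normalized counts in KO libraries against 792 and 828 in WT libraries. The KO libraries were both above the WT libraries, but the log2 change of 0.31 in the authors' deposited table had a 95% interval of -0.076 to 0.71 and did not pass (DESeq2, adjusted p = 0.202). Scaled by total reads it was 1.13 and passed (limma, adjusted p = 9.38e-04).

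**Figure D1:**
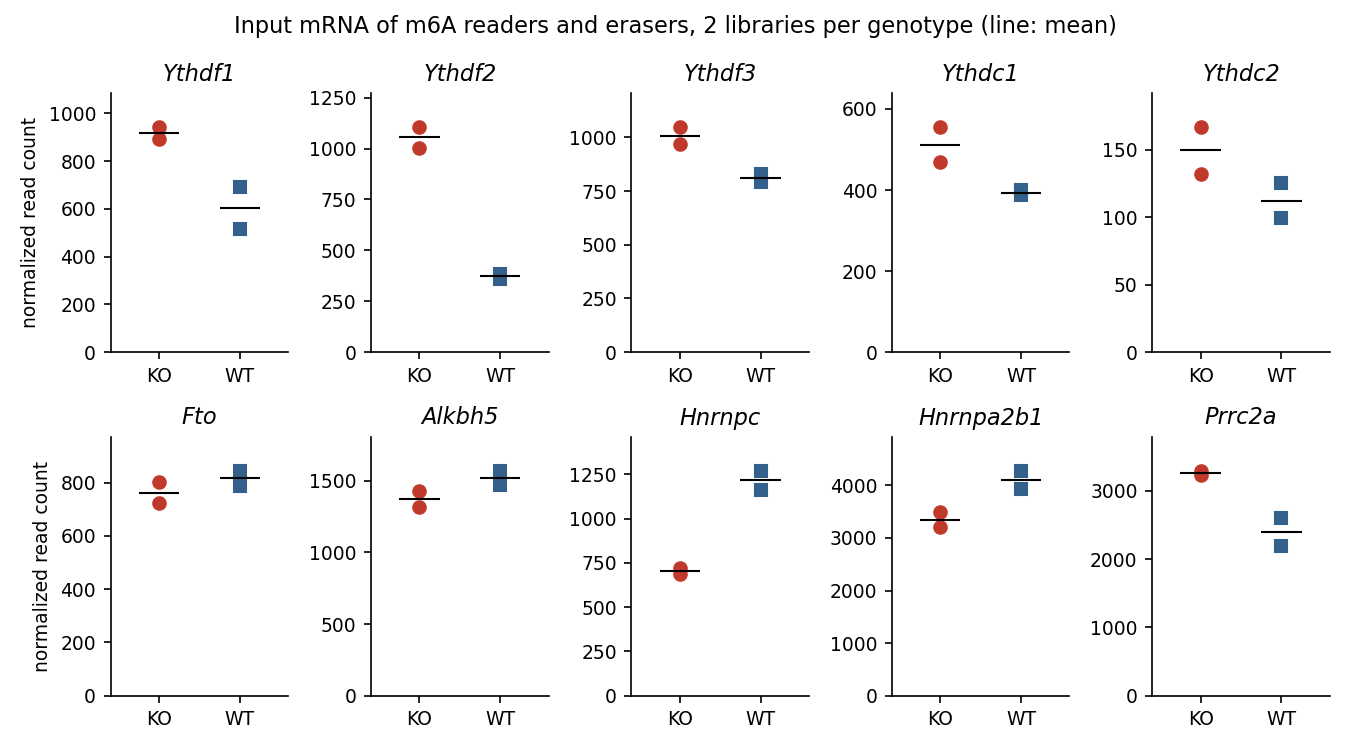
Normalized counts (reads divided by the authors' size factors, linear axes from 0, own scale per gene) of the 10 members, with KO left of WT in each panel, each point an input library and each line the mean of 2. Ythdf2 shows the widest gap between genotypes, with KO libraries at 1005 and 1105 and WT libraries at 360 and 384, while Fto is the one member whose genotypes overlap.

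The reads of the YTHDF paralogs were also set against each other within each library. Of all reads of Ythdf1, Ythdf2 and Ythdf3 in a library, a share that no scaling between libraries can move, Ythdf2 took 35.1% and 35.7% in KO libraries against 21.6% and 20.2% in WT libraries. Ythdf3 took 33.8% in both KO libraries against 47.5% and 43.5% in WT libraries, while Ythdf1 took 31.2% and 30.4% in KO against 30.9% and 36.3% in WT. The Ythdf2 share was thus higher in every KO library than in either WT library, the Ythdf3 share lower, and the Ythdf1 shares overlapped. The KO minus WT difference was 14.5 percentage points for Ythdf2, -11.7 for Ythdf3 and -2.82 for Ythdf1. An exact two-sided permutation test gave p = 0.33, 0.33 and 0.67 for the 3 genes in that order, and 0.33 is the smallest p that 2 libraries against 2 allow. Reads were not divided by transcript length, so these shares compare libraries and not the levels of the paralogs.

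**Figure D2:**
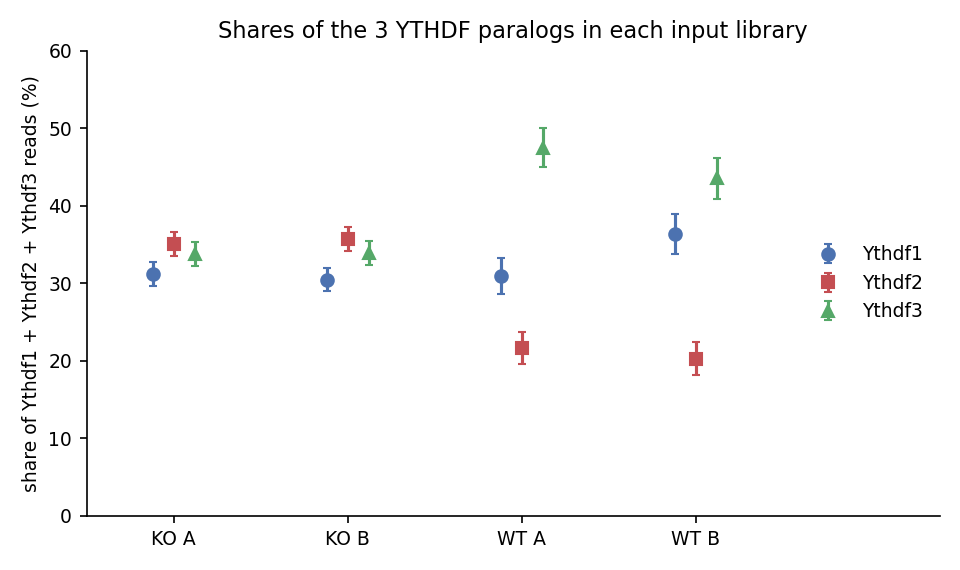
Share (percent) of Ythdf1, Ythdf2 and Ythdf3 in their summed reads, in the 2 KO input libraries and the 2 WT input libraries to their right; bars are exact binomial 95% intervals, which cover counting error only. The Ythdf2 share is 35.1% and 35.7% in KO libraries and 21.6% and 20.2% in WT libraries.

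The YTHDC readers did not pass the test with the authors' size factors. Ythdc1, the nuclear reader of splicing and export (chr5:86803980-86836659), had 469 and 555 normalized counts in KO libraries against 399 and 386 in WT libraries. Ythdc2 (chr18:44827730-44889720) was the least abundant member in counts, with 132 and 167 in KO libraries against 99.2 and 125 in WT libraries. Both genes had KO libraries above WT libraries, by a gap of 17.5% for Ythdc1 and 5.63% for Ythdc2, whose replicates differed by 25.9% within KO and 26.3% within WT. The authors' deposited table gave log2 changes of 0.38 ± 0.23 for Ythdc1 (SE; DESeq2, adjusted p = 0.182) and 0.42 ± 0.34 for Ythdc2 (SE; DESeq2, adjusted p = 0.345). The 95% intervals, -0.074 to 0.84 for Ythdc1 and -0.26 to 1.09 for Ythdc2, include no difference as well as sizeable rises. Scaled by total reads, both passed in limma, Ythdc1 at 1.2 (adjusted p = 0.00127) and Ythdc2 at 1.22 (adjusted p = 0.00610).

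Of the other readers, Prrc2a rose and Hnrnpc fell in KO livers, while Hnrnpa2b1 did not pass. Prrc2a, a large coiled-coil protein proposed as a reader (chr17:35149076-35165321), had 3294 and 3238 normalized counts in KO libraries against 2184 and 2609 in WT libraries. The genotypes did not overlap, with a gap of 24.1%, and the WT libraries differed by 19.4%. Its 1.36-fold difference, a log2 change of 0.45 ± 0.19 (SE) in the authors' deposited table, passed there (DESeq2, adjusted p = 0.0398), but limma with the same size factors gave adjusted p = 0.0527. Without KO A, KO B, WT A or WT B, Prrc2a in limma had log2 changes of 0.44, 0.46, 0.32 and 0.58 and adjusted p of 0.283, 0.258, 0.142 and 0.0604.

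Hnrnpc, which binds uridine tracts of nascent RNA that m6A can open (chr14:52073377-52104039), had 686 and 721 normalized counts in KO libraries against 1270 and 1162 in WT libraries. Both KO libraries were well below both WT libraries. In the authors' deposited table it was at 0.579 of the WT level, a log2 change of -0.79 ± 0.20 (SE; DESeq2, adjusted p = 3.17e-04). limma gave -0.79 (adjusted p = 0.00416); without KO A or KO B it gave -0.75 and -0.82 with adjusted p of 0.113 and 0.101. Scaled by total reads, the difference turned to 0.033 (limma, adjusted p = 0.816), with 861 and 849 raw reads in KO libraries against 1178 and 863 in WT libraries. Hnrnpa2b1, a regulator of alternative splicing and microRNA processing (chr6:51460434-51470048), had 3211 and 3489 normalized counts in KO libraries against 4279 and 3926 in WT libraries. The KO libraries were lower, yet the log2 change of -0.29 ± 0.18 (SE) in the authors' deposited table did not pass (DESeq2, adjusted p = 0.181), and scaling by total reads turned it to 0.53 (limma, adjusted p = 0.0165). The ratio of Hnrnpc to Hnrnpa2b1 reads, which needs no scaling between libraries, was 0.214 and 0.207 in KO libraries against 0.297 and 0.296 in WT libraries. Their reads could not be checked for copies elsewhere in the genome, since no read counter is named in the sources used here.

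The erasers gave no call with the authors' size factors. Fto, a demethylase also known for its link to body weight (chr8:91313367-91668433), had 724 and 800 normalized counts in KO libraries against 788 and 844 in WT libraries, and the genotypes overlapped. Alkbh5, a nuclear demethylase (chr11:60537683-60558512), had 1318 and 1431 in KO libraries against 1474 and 1570 in WT libraries, with the KO libraries lower by a gap of 3.0%. In the authors' deposited table the log2 changes were -0.10 for Fto (DESeq2, adjusted p = 0.740; 95% interval -0.50 to 0.30) and -0.15 for Alkbh5 (DESeq2, adjusted p = 0.570; 95% interval -0.52 to 0.22). These intervals leave out a 2-fold change of either eraser with the authors' size factors. Scaled by total reads the changes turned to 0.72 for Fto (limma, adjusted p = 0.00397) and 0.67 for Alkbh5 (limma, adjusted p = 0.00463), both passing but below the median of 0.87 over all recovered genes on that scale. The ratio of Fto to Alkbh5 reads was 0.549 and 0.559 in KO libraries against 0.535 and 0.538 in WT libraries.

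Over the 10 members, 3 were called higher in KO (Ythdf1, Ythdf2 and Prrc2a), 1 lower (Hnrnpc) and 6 neither way. Over all 14257 genes tested in the authors' deposited table, 42.5% were called, 20.4% higher and 22.2% lower, so 4 of 10 called members is near that background. limma with the authors' size factors called 2 members higher and 1 lower, where 42.0% of the recovered genes were called, 21.7% higher and 20.3% lower. The median log2 change in the authors' deposited table was 0.35 over the members and 0.046 over all tested genes. In 6 members both KO libraries were above both WT libraries, in 3 both were below, and in 1 they overlapped; of the 12660 genes with a mean of at least 10, 78.9% did not overlap, 40.0% with KO higher and 38.9% with KO lower. Scaled by total reads, limma called 9 members higher and 0 lower, where 57.5% of all recovered genes were called, 51.2% higher and 6.24% lower. On that scale the median change was 1.16 over the members and 0.87 over all recovered genes, and 6 of the 10 members were above that median.

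**Figure D3:**
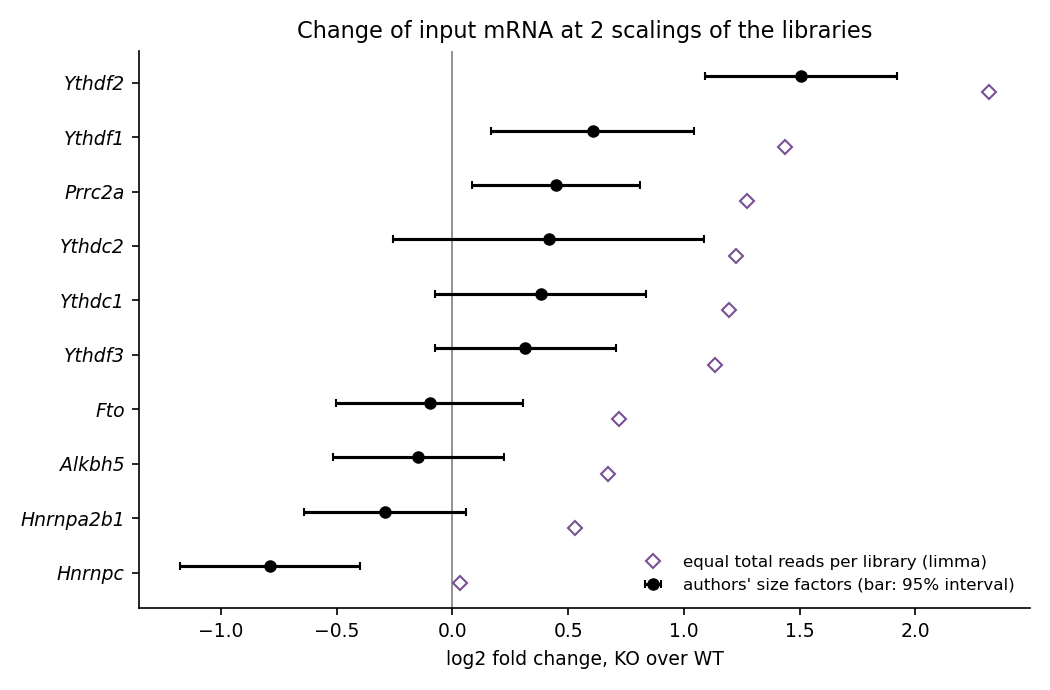
Log2 change of each member, KO over WT, in the authors' deposited table with its 95% interval (filled circles) and scaled by total reads (open diamonds, limma), with 0 as no difference. With the authors' size factors Ythdf2 lies at 1.50 and Hnrnpc at -0.79; scaled by total reads every member lies above 0, Hnrnpc at 0.033.

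The members' own mRNAs carried m6A peaks in both genotypes. The lists hold regions in which the authors found antibody-enriched RNA, 1 list per genotype with no value per library, so differences between lists have no replicate check. The KO list had 32 peaks in 9 members and the WT list 21 peaks in 6 members; of peaks at or above the median enrichment of their own list, there were 13 in the KO list and 19 in the WT list. Ythdf1, Ythdc1, Fto, Alkbh5, Hnrnpa2b1 and Prrc2a had peaks in both, Ythdf2, Ythdf3 and Hnrnpc in the KO list alone, and Ythdc2 in neither. Among the 9202 genes with a mean of at least 100, 62.2% had a peak in the KO list, 32.4% in the WT list, 32.5% in the KO list and not the WT list, and 2.76% the other way round. The authors' p of the member peaks, not stated to be adjusted, ran from 1.99e-61 (Hnrnpa2b1) to 5.05e-04 (Ythdf3) in the KO list and from 4.91e-82 (Hnrnpa2b1) to 3.04e-09 (Ythdc1) in the WT list. The KO list as a whole was longer, with 12290 peaks against 5586 in the WT list. Positions below are mm10 coordinates as the lists give them, enrichment is the authors' ratio for that peak, and positions within a gene are measured from the RefSeq gene ends. No genome or exon annotation was used, so no peak was assigned to an exon, an intron or an untranslated region.

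The genes with peaks in the KO list alone included 2 of the YTHDF readers. Ythdf2 had 4 KO peaks and 0 WT peaks; the most enriched, at 22.4, lay 149 bases inside the 5′ end (chr4:132212008-132212107), and the other 3 lay 6875 to 7770 bases in, at 5.66 to 8.75. Ythdf3 had 5 KO peaks and 0 WT peaks, led by the highest value of any member in the KO list, 74.7, at 85 bases from the 5′ end (chr3:16183233-16183431). Its others ran from 7.33 to 20.1, among them one of 843 bases (chr3:16204089-16204932). Hnrnpc, which fell in KO, also had 2 peaks in the KO list alone, in 2 and 3 blocks, at 14.4 (chr14:52075126-52075319) and 23.4 (chr14:52084358-52103978). With the authors' size factors, Ythdf3 mRNA was not called, Hnrnpc mRNA was lower in KO and Ythdf2 mRNA was higher. Scaled by total reads, their log2 changes were 1.13, 0.033 and 2.32 in that order. The part of mRNA level or depth in these peaks was not tested.

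Ythdf1 had 4 peaks in the KO list and 1 in the WT list. Its WT peak (chr2:180910931-180911029) had an enrichment of 78.3 and lay inside a KO peak of 247 bases with an enrichment of 8.64 (chr2:180910782-180911029), while the 3 further KO peaks had 5.94 to 9.58. Ythdc1 had 3 KO peaks and 1 WT peak, and the shared one began at the same base in both lists, with 21.0 in KO (chr5:86817021-86817219) against 51.7 in WT (chr5:86817021-86817119). The 2 other KO peaks of Ythdc1, at 4.91 and 6.77, lay 3087 and 798 bases from its 3′ end. For both readers the KO list thus held the WT position at a lower enrichment together with further peaks of low enrichment.

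Prrc2a carried the most WT peaks of any member, 9 against 4 in the KO list. The WT peaks had enrichments of 31.5 to 254 and formed 2 clusters, at chr17:35155052-35157045 and chr17:35159314-35159828, whose highest was chr17:35156698-35156747. The KO peaks had enrichments of 6.21 to 21.0 and were longer, up to 844 bases (chr17:35156201-35157045), and 3 of them covered all 9 WT peaks. Covered bases were 1789 in KO against 990 in WT, so the fewer KO peaks of Prrc2a spanned more sequence. Hnrnpa2b1 had 3 peaks in each list at matching places: 22.4 in KO against 58.7 in WT near the 5′ end, 5.51 in KO against 5.85 in WT in the middle, and 4.17 in KO against 9.4 in WT at chr6:51461971-51462020, which had the same bounds in both lists.

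Of the erasers, Fto had 2 KO peaks and 4 WT peaks. The strongest WT peak of all members, at 322.65, joined 2 blocks between 207 bases from the 5′ end and chr8:91401859. The KO list had a single peak of 3 blocks over that region at 43.9 (chr8:91313574-91409543), which also covered WT peaks of 208.8 and 62.0. The last WT peak (chr8:91409592-91409641, enrichment 67.3) was the one WT member peak that no KO peak overlapped, and the second KO peak, at 6.28, lay 1680 bases from the 3′ end. Alkbh5 had 5 KO peaks and 3 WT peaks, the WT peaks all 448 to 647 bases from the 5′ end with 211, 132.5 and 37.3. KO peaks at the same place had 21.7 over the first 2 and 10.3 at the third, whose bounds were the same in both lists (chr11:60538330-60538429). The 3 KO peaks of Alkbh5 without a WT partner had 27.75 at 299 bases from the 5′ end, and 7.39 and 9.86 at 4083 and 548 bases from the 3′ end.

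**Figure D4:**
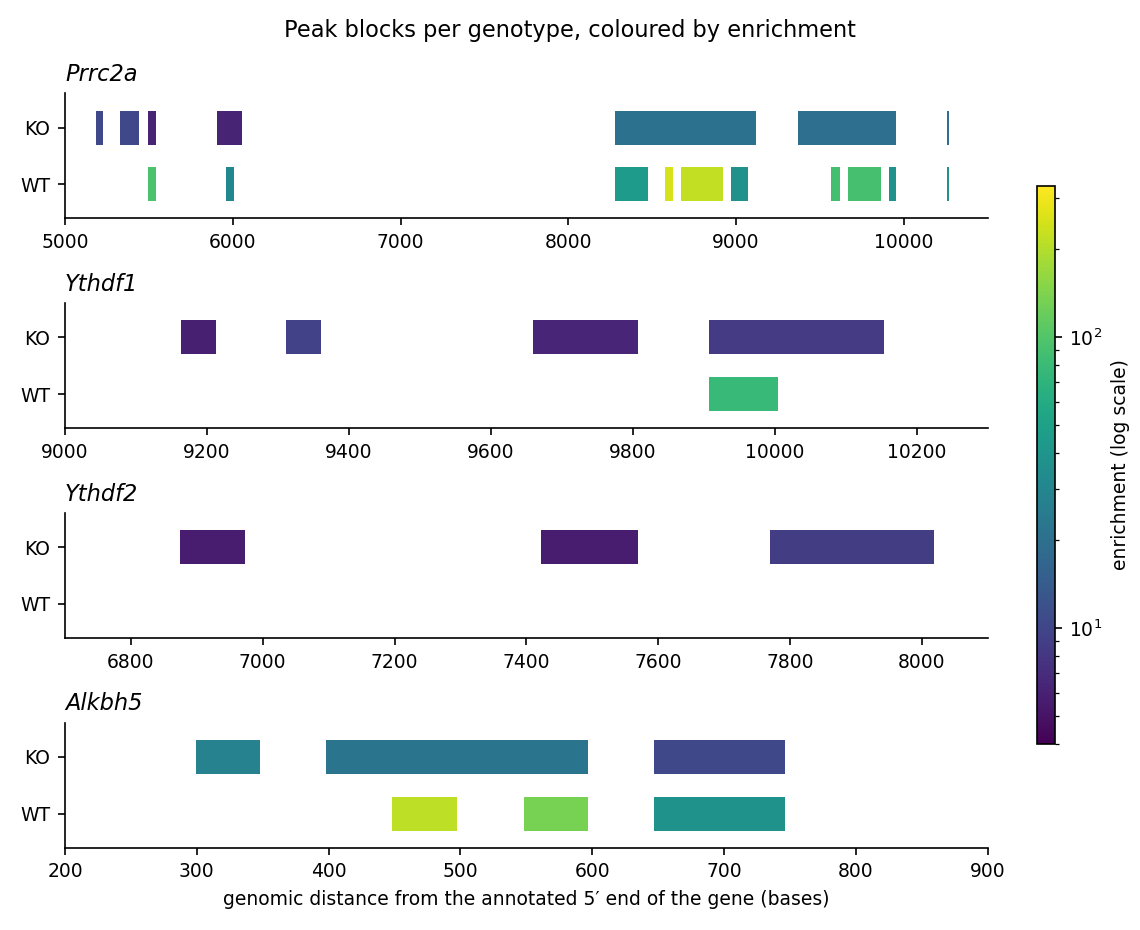
Peak blocks of Prrc2a, Ythdf1, Ythdf2 and Alkbh5 in stretches of each gene, by genomic distance in bases from the annotated 5′ end, KO row above WT row, coloured by the authors' enrichment on a log scale. KO blocks are at least as long as the WT blocks they cover and lower in enrichment, and Ythdf2 has 0 WT peaks; peaks outside the drawn stretches are not shown.

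Where peaks of the genotypes overlapped, the KO enrichment was the lower one in every pair. The 20 overlapping pairs of the members had KO over WT ratios of 0.0651 to 0.942 with a median of 0.216, and 20 of 20 were below 1. Over all genes 75.4% of 4102 pairs were lower in KO, with a median of 0.502. Of the 20 pairs 9 belong to Prrc2a and share 3 KO peaks. The 3 Fto pairs share 1 KO peak, and 2 of the 3 Alkbh5 pairs share 1 KO peak. The pairs are therefore not independent. By gene, the median ratio was 0.110 in Ythdf1 and 0.407 in Ythdc1 (1 pair each), 0.213 in Prrc2a, 0.443 in Hnrnpa2b1, 0.210 in Fto and 0.164 in Alkbh5. Member peaks were also longer in the KO list, with a median of 148.5 bases against 50 in the WT list. Over all peaks the medians were 99 bases in the KO list and 49 in the WT list. The part of peak length in these ratios was not tested. In the pairs with the same bounds the ratios were 0.277 (Alkbh5) and 0.443 (Hnrnpa2b1), where over all genes 83.1% of 326 such pairs were lower in KO, with a median of 0.399. Enrichment is relative to input, so the pairs of all genes were binned by the gene's log2 change in the authors' deposited table. The median ratio was 0.778 below -1, 0.426 between -1 and 1, and 0.237 above 1. The part of the input change in these ratios was not tested. With the authors' size factors all 6 members with pairs lay between -1 and 1, where 80.9% of 2696 pairs were lower in KO. With total-read scaling, Ythdf1 (1.44), Ythdc1 (1.2) and Prrc2a (1.27) lay above 1, and Fto (0.72), Alkbh5 (0.67) and Hnrnpa2b1 (0.53) below it. The bins were not redrawn on that scale.

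**Figure D5:**
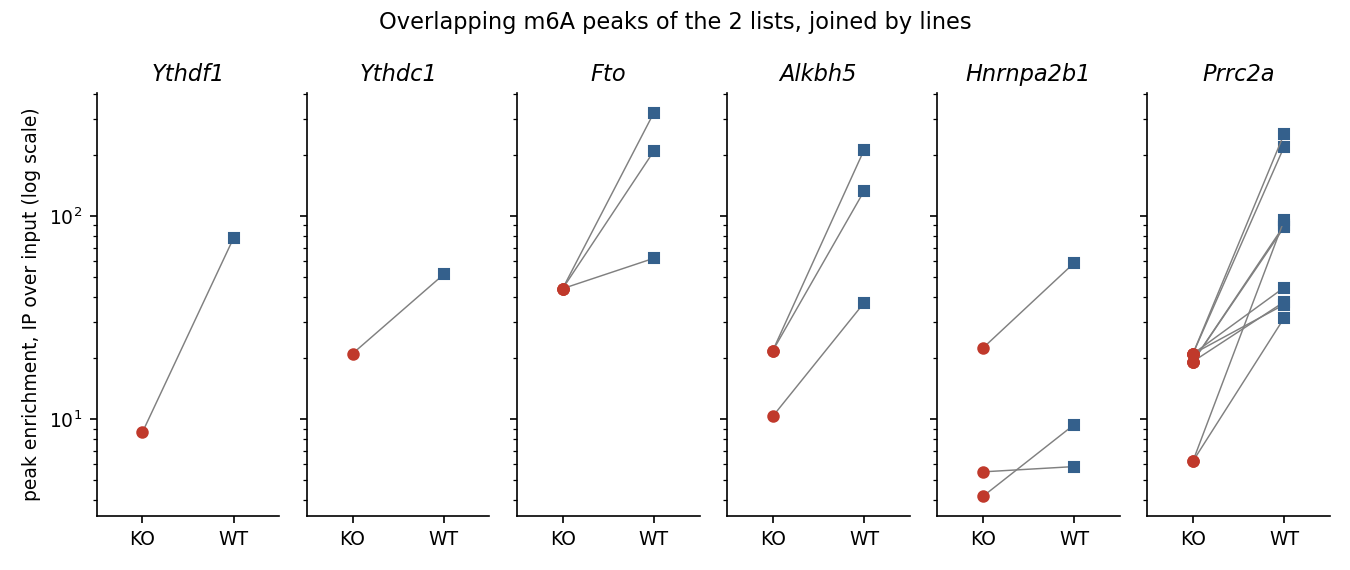
Enrichment (authors' ratio of IP over input, log axis) of the overlapping peaks of the 6 members with peaks in both lists, KO left and WT right, each line joining a pair. In all 20 pairs the KO end is lower, from 0.0651 to 0.942 of the WT value.

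In terms of overlap, 20 of 21 WT member peaks (95.2%) overlapped a KO peak, against 72.6% of all WT peaks, and 11 of 32 KO member peaks (34.4%) overlapped a WT peak, against 27.3% of all KO peaks. In covered bases, the KO peaks of the members held 6647, the WT peaks 2079 and both 2030, which is 97.6% of the WT bases and 30.5% of the KO bases. Of the 21 KO peaks without a WT partner, 11 were in Ythdf2, Ythdf3 and Hnrnpc and 10 in members with a WT peak elsewhere. A peak within 1000 bases of the 5′ end, a window chosen after the values were seen, was present in 6 of 9 members in the KO list and 3 of 6 in the WT list, against 60.6% of the genes placed in the KO list and 51.8% in the WT list.

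Other genes of the m6A pathway are set beside the members here, with log2 changes and calls from the authors' deposited table (DESeq2, adjusted p under 0.05), where 20.4% of all tested genes were higher, 22.2% lower, and the median was 0.046. Of 11 writer genes (median 0.17), 2 were higher in KO, Mettl16 (log2 change 0.92) and Rbm15 (0.78), and 1 lower, Mettl5 (-0.83), while Mettl3 and Wtap had 0.17 each. Of 13 other proposed readers (median 0.10), 4 were higher and 3 lower; Prrc2b, the paralog of Prrc2a, rose by 1.29 (adjusted p = 7.11e-10) and the stress granule gene G3bp1 by 0.64, Rbmx was at -0.94 and Snd1 at -0.54, which turned to 0.28 when scaled by total reads. Among 16 genes of the CCR4-NOT deadenylase and other decay partners of YTHDF2 (median -0.28), 2 were higher and 3 lower: Cnot6, a catalytic subunit, was at 0.83, Tnks1bp1 at 1.21, Cnot1, the scaffold, at -0.64 and Hrsp12, which links YTHDF2 to RNase P and MRP, at -1.82. Ythdf2 was therefore higher and the scaffold Cnot1 lower with the authors' size factors, while scaled by total reads Cnot1 turned to 0.18 and, among the hnRNP genes below, Hnrnpl to 0.12. Of 5 partners of the YTHDC readers (median 0.20), 1 was higher, the export receptor Nxf1 (0.65). Of 7 other AlkB family genes, relatives of Fto and Alkbh5 (median 0.77), Alkbh1 (1.12) and Alkbh2 (1.08) were higher and Alkbh6 (-1.51) was lower. Of 18 other hnRNP genes (median -0.23), 2 were higher and 3 lower, and those with the smallest p were Hnrnpa0 (0.81), Hnrnpl (-0.70), Hnrnph2 (-0.70) and Hnrnpul2 (-0.49). Scaled by total reads, Hnrnph2 and Hnrnpul2 also turned above 0, to 0.12 and 0.33.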

How the data were processed

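Input RNA and m6A-precipitated RNA of KO and WT livers were sequenced, 2 libraries per group. The submitters' processing notes name mm10, HISAT2 2.1.0 and DESeq2 1.18.1; the counter, annotation and peak caller were not given in the sources used here. For the inputs the authors deposited 1 DESeq2 table: its mean is a signal (normalized counts averaged over libraries), the fold change and SE are log2 values, per the file headers, and the Wald statistic is a score. The deposited p-value and adjusted p-value are the authors'. The deposited peak lists give 1 p-value per peak and an enrichment, taken as a ratio of IP over input. They do not say whether the p-value was adjusted or which genotype is the numerator of the fold change.

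Counts per input library were solved from the decimals of each deposited mean, as whole reads times a step per library (size factors 1.25, 1.18, 0.927 and 0.743), for 15946 of 16133 genes (98.8%), guided by the deposited fold change above a mean of 60. The 181 genes above a mean of 10000 and 6 others had no recovered counts and were left out of limma. Their reads were not left out of the estimated totals, so total-read scaling rests in part on estimates for these genes. For 1193 genes above a mean of 30 found without the fold change, refitted log2 changes differed from the deposited ones by at most 0.00522. Since replicate numbers of these libraries are unknown, they are called A and B. Recovery and limma were also run on simulated data in which all genes had the same dispersion. The outcome is not given here, and no conclusion is drawn from it.

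The test was the deposited DESeq2 adjusted p under 0.05. limma 3.58.1 with a trend (R 4.3.3) on log2(normalized count + 1) was fitted to all recovered genes, and refitted with total-read scaling, pseudocounts of 0.5 and 5, a mean of at least 10, and without each library. Peaks were paired where their blocks shared at least 1 base. Genes named are all 10 members, Mettl14, Mettl3 and Wtap, and from each pathway list up to 4 called genes with the smallest adjusted p. Members and lists were chosen with earlier results of these data known. Intervals of shares are exact binomial and cover counting error only.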

Additional observations from a re-analysis of the deposited data

How the results depend on the processing

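The count of members called higher in KO, 3 in the authors' deposited table, was 1 at an adjusted p under 0.01 and 9 in limma with total-read scaling. It ranged from 0 to 2 in limma without 1 library. The count called lower, 1, was 0 with total-read scaling and 0 to 1 without 1 library. Over all genes limma called 6700, and 828 to 3923 without 1 library; such a fit takes its spread from the other genotype, whose libraries the lone one is assumed to vary like. Total-read scaling reversed Fto (0.72), Alkbh5 (0.67), Hnrnpc (0.033) and Hnrnpa2b1 (0.53). No member changed direction without 1 library or with another pseudocount or filter. Prrc2a missed the threshold in limma with the authors' size factors (adjusted p = 0.0527), and passed with a mean of at least 10 (adjusted p = 0.0396) and with total-read scaling (adjusted p = 0.00136). With the peaks of each list at or below its median p, members held 17 KO peaks and 11 WT peaks; with peaks at or above their list's median enrichment, 13 KO peaks and 19 WT peaks, so the order of the lists turned. Asking for an overlap of 0.5 of each peak left 3 KO and 3 WT peaks of members shared. These were 3 of the 20 overlapping member pairs, against 1283 of 4102 pairs over all genes. Counts per transcript length were not run, as no transcript lengths were used. No paired analysis was possible because the recovered libraries carry no replicate number. Ythdf3, Ythdc1 and Ythdc2 passed with total-read scaling alone, and 2 libraries per genotype limit the precision of every member's change.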
